A study of Mus musculus with 4 samples.

Results

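The genes described here are the Zfp zinc finger genes that were expressed in mouse keratinocytes, that is, genes whose symbol is Zfp followed by a number. The array carries 328 such genes in 611 probe sets, with Zfp36, an mRNA decay factor of another protein class, left out. Each gene was taken at the probe set that was brightest on average over the 4 arrays, and 87 genes with a mean of at least 100 units were kept, out of 18193 named genes in all. Signal is the deposited MAS5 intensity, a linear measure of a probe set's brightness. The selection used the mean over irradiated and unirradiated arrays. In 43 of the 87 genes the mean of the irradiated arrays alone was under 100 units, so many genes passed through their unirradiated signal. In 1 gene, Zfp764, the mean of the unirradiated arrays was under 100 units. Because the selection depends on the arrays compared, the Zfp genes are read beside other genes chosen by the same minimum and beside the Zfp genes under it. Just inside the minimum were Zfp931, Zfp385c and Zfp407, with means of 100, 100.9 and 102.7 units, and just outside were Zfp296, Zfp646 and Zfp516, with means of 98.05, 92.02 and 91.82.

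The cells were cultured primary keratinocytes of newborn C57BL/6 mice, either WT or p38a-KO, where p38a is the stress-activated kinase encoded by Mapk14. RNA was taken without irradiation or 4 h after UVB at 75 mJ/cm2, which gives 4 groups with 1 array each. Whether cells of several animals were pooled, and how and in which cells the KO was made, is not given in the sources used here. Both unirradiated groups stand for the start of the time course, and no sham-treated culture at 4 h was analysed here.

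C2H2 zinc finger proteins bind DNA, and some bind RNA, through small domains folded around a zinc ion. Many carry a KRAB domain, which recruits the co-repressor KAP1 (gene Trim28) together with the histone methyltransferase SETDB1 to silence retroelements, imprinted loci and other sequences. The Zfp symbol is a naming convention and not a single family: it also covers promoter activators, ribosome assembly factors, ubiquitin ligases and spindle proteins. In skin, Zfp750 acts below p63 in terminal differentiation of the epidermis.

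The promoters of the 3 genes with the lowest and the 3 with the highest mean difference after UVB, among genes with a single promoter entry, are printed to show the sequences at the ends of the range described below. Each window runs from 250 bases before to 50 bases after the gene start, 5′ to 3′ on the gene's own strand, from RefSeq on GRCm38.p6. It thus holds the upstream promoter and the first transcribed bases. Capitals mark the motifs searched on both strands. The first 3 belong to genes that were lower after UVB, Zfp292 (chr4:34882899-34883198, minus strand), Zfp451 (chr1:33814546-33814845, minus strand) and Zfp322a (chr13:23369159-23369458, minus strand). The last 3 belong to the other end of the order, where Zfp598 fell slightly and Zfp688 and Zfp764 were higher: Zfp598 (chr17:24669437-24669736, plus strand), Zfp688 (chr7:127421985-127422284, minus strand) and Zfp764 (chr7:127406773-127407072, minus strand).
Zfp292: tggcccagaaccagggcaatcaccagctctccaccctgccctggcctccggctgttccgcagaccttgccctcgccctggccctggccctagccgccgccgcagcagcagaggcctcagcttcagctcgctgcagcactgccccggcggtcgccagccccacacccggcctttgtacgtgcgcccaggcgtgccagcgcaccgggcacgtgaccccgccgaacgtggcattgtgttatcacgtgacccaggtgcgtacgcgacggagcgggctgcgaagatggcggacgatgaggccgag
Zfp451: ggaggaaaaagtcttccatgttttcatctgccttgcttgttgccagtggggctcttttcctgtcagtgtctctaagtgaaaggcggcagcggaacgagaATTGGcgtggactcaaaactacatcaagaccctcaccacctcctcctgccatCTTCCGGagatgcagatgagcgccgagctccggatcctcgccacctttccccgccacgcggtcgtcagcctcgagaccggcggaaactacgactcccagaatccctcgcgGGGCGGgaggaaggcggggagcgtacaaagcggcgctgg
Zfp322a: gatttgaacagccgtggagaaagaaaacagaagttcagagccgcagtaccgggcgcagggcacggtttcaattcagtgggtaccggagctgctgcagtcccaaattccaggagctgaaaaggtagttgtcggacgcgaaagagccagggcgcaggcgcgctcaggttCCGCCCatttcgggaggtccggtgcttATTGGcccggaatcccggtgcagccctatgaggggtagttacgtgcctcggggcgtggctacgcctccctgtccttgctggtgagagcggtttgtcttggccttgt
Zfp598: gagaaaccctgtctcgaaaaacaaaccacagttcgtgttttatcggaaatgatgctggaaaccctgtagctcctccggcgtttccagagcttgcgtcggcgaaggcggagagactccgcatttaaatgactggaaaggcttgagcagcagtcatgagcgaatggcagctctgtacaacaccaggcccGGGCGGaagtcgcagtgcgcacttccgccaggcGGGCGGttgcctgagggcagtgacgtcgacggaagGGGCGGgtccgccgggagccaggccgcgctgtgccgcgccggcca
Zfp688: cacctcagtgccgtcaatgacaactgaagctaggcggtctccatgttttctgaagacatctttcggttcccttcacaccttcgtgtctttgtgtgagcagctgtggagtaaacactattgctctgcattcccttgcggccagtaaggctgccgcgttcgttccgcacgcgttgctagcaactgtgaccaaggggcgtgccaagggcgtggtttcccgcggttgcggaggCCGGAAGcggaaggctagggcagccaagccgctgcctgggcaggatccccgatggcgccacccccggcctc
Zfp764: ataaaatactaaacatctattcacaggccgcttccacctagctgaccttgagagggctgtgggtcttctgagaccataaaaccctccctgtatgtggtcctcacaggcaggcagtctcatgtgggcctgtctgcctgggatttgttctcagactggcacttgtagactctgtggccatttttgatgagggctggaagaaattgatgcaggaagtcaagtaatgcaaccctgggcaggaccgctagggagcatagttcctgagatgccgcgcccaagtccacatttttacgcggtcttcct

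A promoter was found for 72 of the 87 genes. The GC box, GGGCGG, was present in 46 of the 72, or 63.9%, against 35.9% of all 27025 promoters of the same length in the table. The CCAAT box, CCAAT, was present in 36, or 50%, against 37.9%, and the ETS motif, CCGGAAG, in 13, or 18.1%, against 9.12%. The TATA box, TATAAA, was present in 6, or 8.33%, against 14.2%, and the AP-1 motif, TGANTCA, in 3, or 4.17%, against 7.93%. The CRE, TGACGTCA, and the longer NRF1 and YY1 motifs were present in 2, 1 and 2 promoters, and in 1.88%, 0.977% and 0.699% of all promoters. Each motif was counted on its own, whether or not it overlapped another. Zfp promoters held a median of 19.5 CpG per window against 7.0 over all promoters. The windows printed above held 30 for Zfp292, 24 for Zfp451, 22 for Zfp322a, 29 for Zfp598 and 22 for Zfp688, and 6 for Zfp764. The motifs were about as frequent at both ends of the range: the GC box was in 11 of the 16 promoters found for the 20 genes with the lowest differences and in 11 of the 17 found for the 20 with the highest. The CCAAT box was in 8 and 7 of them and the ETS motif in 4 and 5, with median CpG counts of 18.5 and 20. The 27025 promoters were counted whether or not their gene was expressed here. Promoters of other expressed genes were not counted apart, so whether these shares are particular to Zfp genes was not tested. A match is a run of letters and not evidence of binding.

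The whole of the arrays was dimmer after UVB, which bears on each value below. The median over all probe sets was 30.3 units without and 18.7 with irradiation in WT, and 34.5 without and 18.7 with it in KO-labelled cells. Values under 24.9 units, the median probe set's mean signal, were raised to this floor, and 11379 genes with a mean at or above it were tested. The median gene tested differed by -0.70 on the log2 scale after UVB in WT and by -0.82 in KO-labelled cells. With quantile normalization these medians were 0.05 and 0.06, and with each array centred on its median they were 0.32 and 0.28, so a direction relative to other genes can differ from the direction of the deposited signal. In bulk RNA, fewer cells of a type and less RNA per cell cannot be told apart. Markers of keratinocytes were present: all 10 keratinocyte markers on the array of the 11 listed were above the floor, and the basal keratin Krt5 read 13795 units without and 12614 with irradiation in WT, and 13104 and 12843 in KO-labelled cells. Each set of 4 signals below keeps this order (WT unirradiated, WT irradiated, KO-labelled unirradiated, KO-labelled irradiated). Other keratinocyte markers were less even: Trp63, which codes for p63, read 1676, 150.5, 1931 and 235.5 units, and the differentiation keratins Krt1 and Krt10 read 1287, 708.1, 1814 and 1730, and 659.4, 526.1, 1170 and 1361. Trp63 was thus lower after UVB in both genotypes, and both differentiation keratins were higher in KO-labelled cells. The brightest Mapk14 probe set read 985.4, 292.5, 1449 and 646.8 and was not lower in the cells labelled KO, which are therefore called KO-labelled. Which part of the gene was deleted is not given in the sources used here, so a probe set outside it would check nothing.

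The expressed Zfp genes were lower after UVB in both genotypes, with medians below those of other genes chosen by the same minimum of 100 units. These are called the other genes of this signal, though they share only the minimum. More of them were bright: 3289 of the 7462 read 400 units or more, against 10 of the 87 Zfp genes. Dimmer genes had larger differences, so shares within classes of signal are given further below. In WT, 62 of 87 were at least 2-fold lower, or 71.3%, against 34.8% of all genes tested and 36.1% of the 7462 other genes with a mean of at least 100. In KO-labelled cells 66 were, or 75.9%, against 39.3% and 39.4%. On the deposited scale no Zfp gene was 2-fold higher in either genotype, where the background was 0.58% and 0.536% in WT and 0.167% and 0.107% in KO-labelled cells. A few were 2-fold higher after rescaling, as given in the section on processing. The median Zfp gene differed by -1.45 in WT, with an interquartile range of -2.08 to -0.93, and by -1.42 in KO-labelled cells, with a range of -1.86 to -1.04. Over the other genes of this signal the medians were -0.73 and -0.82. The Zfp median stayed below 0 with quantile normalization, at -0.40 and -0.41, and with median centring, at -0.38 and -0.29, while that of the other genes was above 0 under both, at 0.02 and 0.04 and at 0.34 and 0.31.

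Put as signal, the median Zfp gene read 280.6 units in unirradiated and 90.64 in irradiated WT cells, and 284 in unirradiated and 113.3 in irradiated KO-labelled cells. The lowest gene read 85.06, 22.13, 99.45 and 28.65 units and the highest 2319, 1265, 2321 and 1460. In 83 genes both irradiated arrays were below both unirradiated ones, an arrangement found in 79.8% of all genes tested and 83.2% of the other genes of this signal. The 4 exceptions were Zfp385c, Zfp593, Zfp688 and Zfp764.

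**Figure D1:**
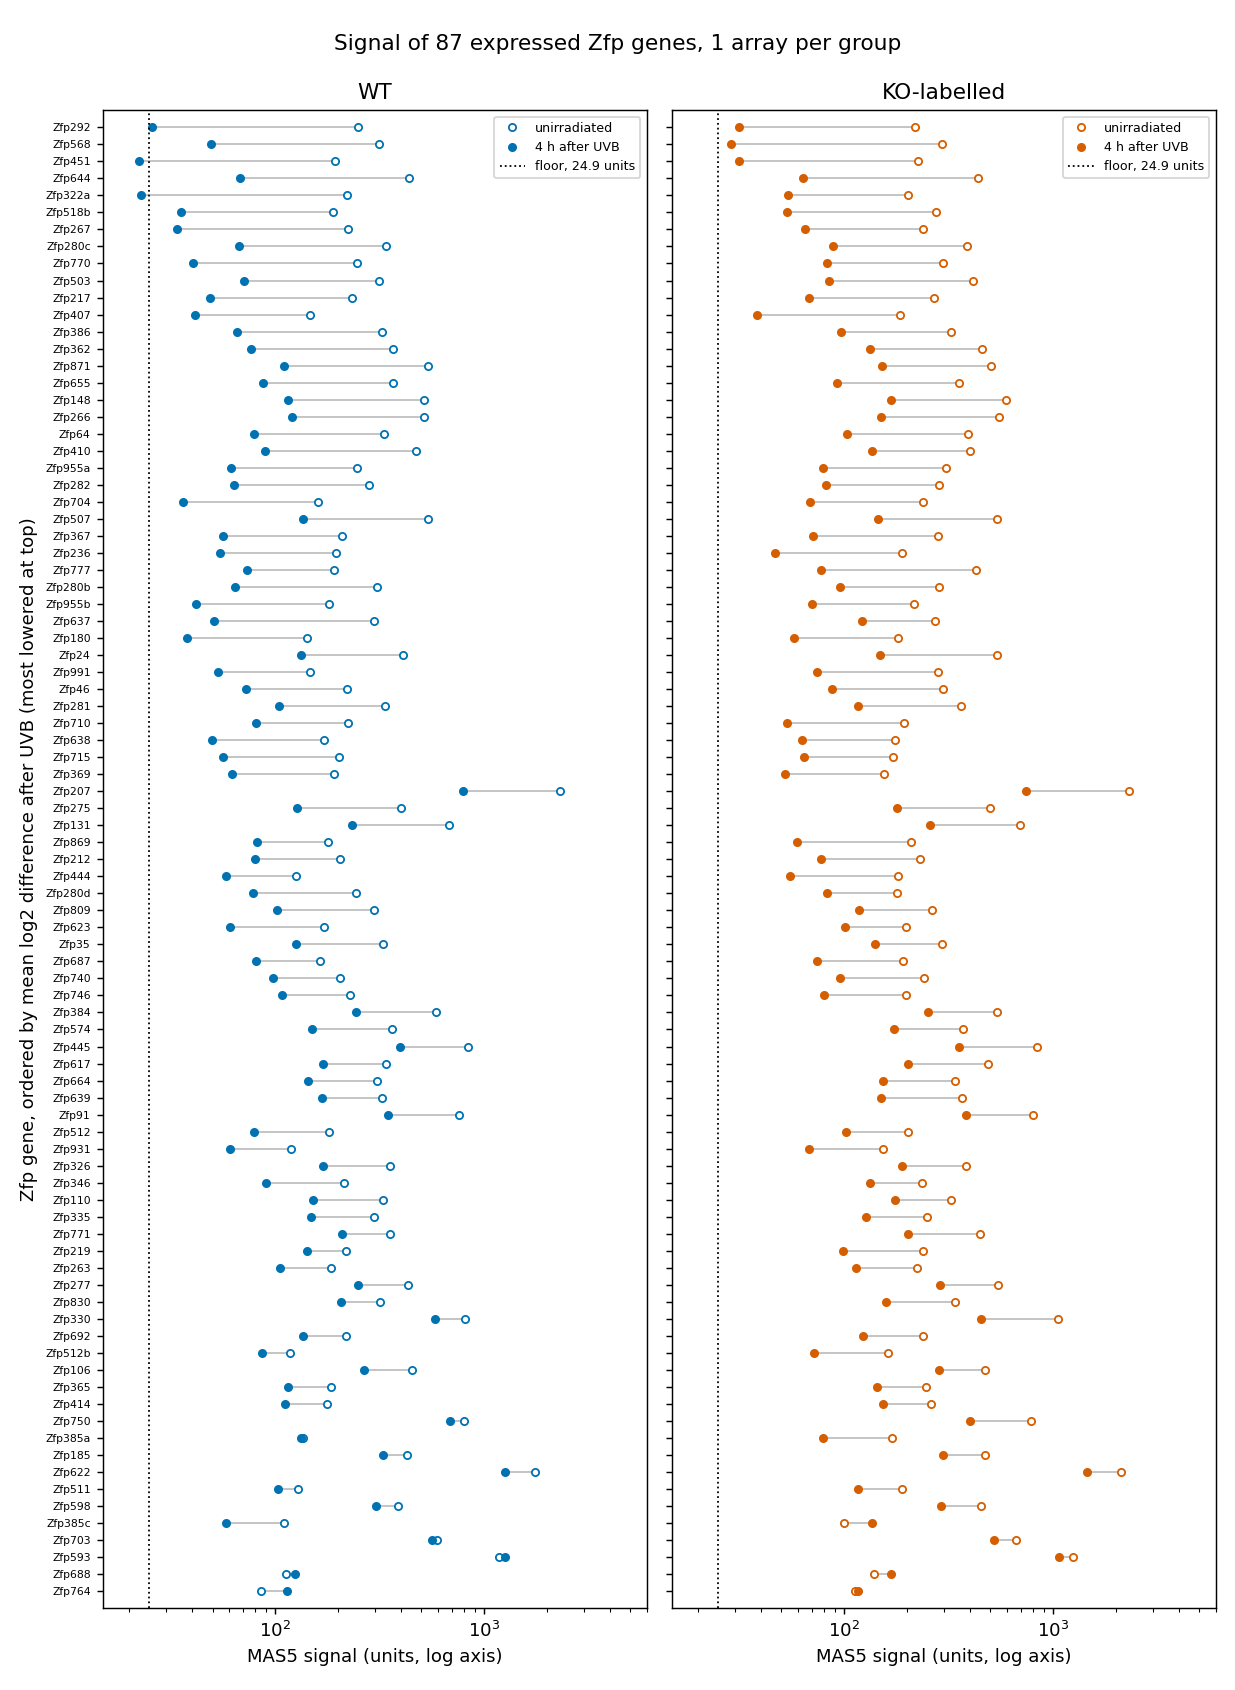
Signal of the 87 expressed Zfp genes in MAS5 units on a log axis, WT on the left and KO-labelled on the right, with open points for unirradiated cells, filled points for cells 4 h after UVB, 1 array per group, and a dotted line at the floor of 24.9 units. Genes run from the most lowered at the top to the least at the bottom, and only Zfp451 and Zfp322a in irradiated WT cells lie below the floor.

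Pairwise differences have no test with 1 array per group. Irradiation and genotype were therefore fitted together, without interaction, over all 11379 genes with limma, where the 1 residual degree of freedom is the disagreement between the genotypes. In its irradiation term 81 Zfp genes fell at a Benjamini-Hochberg adjusted p of 0.05 and 0 rose, with 0 higher at an unadjusted p under 0.05. As background, 69.4% of all genes tested and 78.1% of the other genes of this signal fell, and 0.703% and 0.764% rose. The 6 that did not pass were Zfp385a, Zfp385c, Zfp703, Zfp593, Zfp688 and Zfp764. The count depends on the scale: 40 fell and 6 rose with quantile normalization, and 38 fell and 11 rose with median centring. The 38 genes fell under all 3 scalings. Over all genes tested, 20.16% fell and 20.27% rose with quantile normalization, and 14.89% fell and 36.6% rose with median centring. Labels do not say that arrays came from separate animals. The p-values rest on the disagreement between the genotypes, pooled over genes, and not on a spread within a group, which 1 array cannot give. A UVB response that depends on genotype counts there as error.

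**Figure D2:**
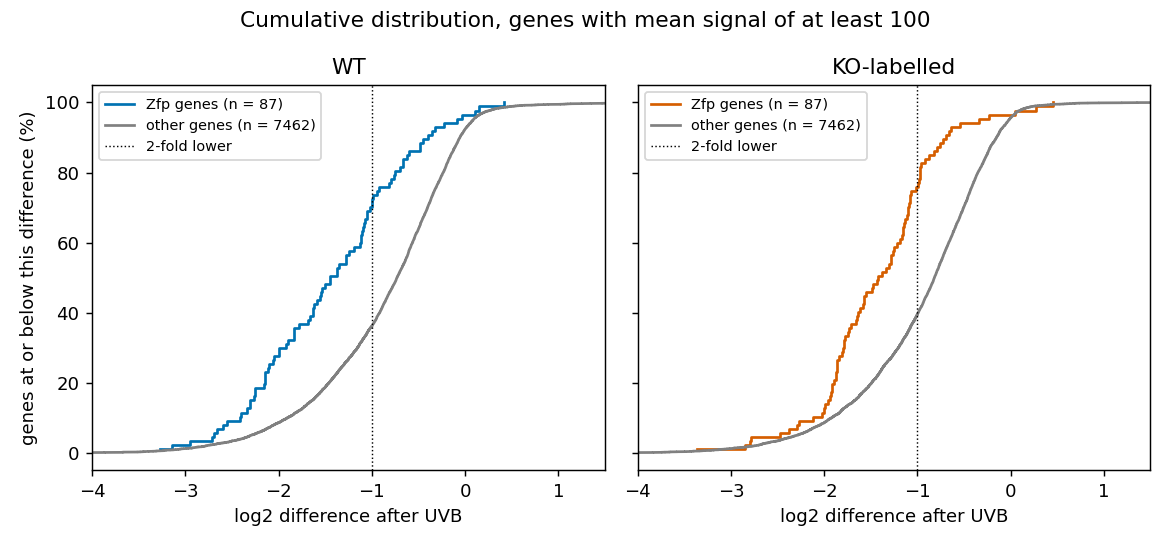
Cumulative share of genes, in percent, at or below each log2 difference after UVB, for the 87 Zfp genes in colour and 7462 other genes with a mean signal of at least 100 in grey. At the dotted line of 2-fold lower, the Zfp curve stands at 71.3% in WT and 75.9% in KO-labelled cells, and that of the other genes at 36.1% and 39.4%. These are differences of the deposited signal, and both rescalings move the medians of the other genes above 0.

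The most lowered genes came close to the floor at 4 h. Zfp292, which codes for a large protein with many zinc fingers, read 248.3, 25.64, 216.9 and 31.16 units. Both irradiated values lay far below both unirradiated ones, 9.68-fold (WT) and 6.96-fold (KO-labelled), and in limma the log2 signal fell by 3.04 (SE 0.22, adjusted p = 6.81e-06). Zfp451, a SUMO ligase, read 193.2, 22.13, 225.8 and 31.43 units. Its irradiated WT value was under the floor, so it was at least 7.76-fold lower in WT, and in KO-labelled cells it was 7.19-fold lower. Zfp322a was likewise at least 8.86-fold lower in WT, from 220.6 to 22.65 units, but 3.76-fold lower in KO-labelled cells, from 201.1 to 53.45. On another probe set of Zfp322a, with a mean of 105 units, the log2 differences were nearly equal, at -2.45 (WT) and -2.41 (KO-labelled). Zfp644, a partner of the histone methyltransferases G9a and GLP, read 435.3, 67.35, 437.5 and 63.64 units and was 6.46-fold and 6.88-fold lower. It fell by 2.74 (SE 0.17, limma adjusted p = 3.65e-06), with hardly any distance between the genotypes.

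The next genes in this order were Zfp518b, Zfp267, Zfp280c and Zfp770. Zfp518b was 5.35-fold lower in WT and 5.19-fold in KO-labelled cells, and Zfp280c 5.06-fold and 4.36-fold. Zfp267 was 6.58-fold and 3.67-fold lower, and Zfp770 6.07-fold and 3.63-fold. In the latter pair the irradiated WT signal, 33.7 for Zfp267 and 40.36 for Zfp770, was below the irradiated KO-labelled signal of 64.94 and 82.3 units. Zfp292, Zfp451, Zfp322a, Zfp644 and these 4 genes fell under all 3 scalings.

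Factors that silence retroelements and imprinted loci were mostly dim, since 3 of the 8 on the array, of 12 listed, reached 100 units. All 3 fell in limma on the deposited scale, and Zfp568 also did under both rescalings. Zfp568, a KRAB protein that represses a placental promoter of Igf2, read 312.4, 49.25, 294.5 and 28.65 units. It was 6.34-fold lower in WT and 10.3-fold in KO-labelled cells, and fell by 3.01 (SE 0.22, limma adjusted p = 6.88e-06). Zfp809, which binds the primer binding site of murine leukaemia viruses, read 296.2, 101.6, 262.3 and 118 units, a fold of 2.92 and 2.22. Zfp445, a regulator of imprinting, read 833.4, 395.8, 839.2 and 352.6 units, a fold of 2.11 and 2.38. The arrays separated by irradiation in each of the 3. With quantile normalization Zfp445 still fell and Zfp809 did not, and with median centring neither did.

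The silencing machinery used by such factors was compared in the same way. Of 24 listed genes of the KAP1 and heterochromatin machinery 22 were measured, and all 22 fell in limma on the deposited scale, where 69.4% of all genes tested fell, with a median of -1.15 (WT) and -1.19 (KO-labelled) and with 13 and 16 at least 2-fold lower, against 34.8% and 39.3% of all genes tested. The largest differences in WT were those of Mphosph8, a HUSH complex subunit that was 7.40-fold lower in WT and 7.30-fold in KO-labelled cells, Morc3, at 7.02-fold and 7.16-fold, and Morc2a, at 4.97-fold and 3.85-fold. The DNA methyltransferase Dnmt3b, at 4.39-fold and 5.41-fold, came before Morc2a in KO-labelled cells and in the common limma term. With quantile normalization 8 of the 22 fell and 2 rose, and with median centring 7 fell and 5 rose; Mphosph8, Morc3, Morc2a and Dnmt3b fell under both. Trim28 itself was among the less lowered, with 1807, 1359, 2406 and 1830 units, and fell by 0.40 (SE 0.097, limma adjusted p = 0.00462), but rose by 0.70 with median centring (limma adjusted p = 1.89e-04). Its signal in unirradiated WT and irradiated KO-labelled cells overlapped. Setdb1 read 306.4, 124.8, 370.5 and 129.9 units and was 2.46-fold and 2.85-fold lower, and did not pass under either rescaling. In the NuRD complex, the remodelling and deacetylase complex that other zinc finger proteins recruit, 10 of 14 genes fell and 0 rose, near the 69.4% of all genes tested, with medians of -0.66 and -0.51, no lower than the -0.70 and -0.82 of all genes tested, where 4 fell and 4 rose with quantile normalization and 3 fell and 8 rose with median centring. Its largest differences in WT were those of Gatad2b, Mbd2 and Mta2, at 3.32-fold, 3.20-fold and 2.84-fold lower in WT and 2.67-fold, 3.13-fold and 2.80-fold in KO-labelled cells, and these 3 also fell under both rescalings.

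Among factors of epidermal differentiation, growth and stem cells, 8 of the 14 listed were expressed members and 7 of the 8 fell, against 78.1% of the other genes of this signal, with medians of -1.34 and -1.31. Those that fell under all 3 scalings were Zfp217, Zfp148, Zfp281 and Zfp503. Zfp217, which works in co-repressor complexes and is amplified in breast cancer, read 232.4, 48.69, 269.5 and 67.41 units, 4.77-fold and 4.00-fold lower. Zfp148, which binds GC-rich promoters, read 512.5, 114.8, 596.9 and 166.9 units and fell by 1.998 (SE 0.15, limma adjusted p = 7.70e-06). Zfp281, its close relative and a regulator of pluripotency, read 334.1, 103.9, 363.7 and 116.7 units. In all 3 genes the irradiated arrays stood well apart from the unirradiated ones.

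The paralogs Zfp503 and Zfp703, transcriptional repressors of the same small family, are given side by side, with no test of their difference. Zfp503 read 313, 70.8, 413.2 and 84.4 units, 4.42-fold and 4.90-fold lower. Zfp703, a growth regulator, read 596.2, 562.9, 661.7 and 522.2 units, with a difference of -0.21 that did not pass (SE 0.13, limma adjusted p = 0.158). Both values of irradiated Zfp703 were below both unirradiated values, by a small margin, and it rose under both rescalings. Zfp750, the differentiation factor, read 799.9, 684.8, 784.4 and 399.1 units. It fell by 0.60 (SE 0.17, limma adjusted p = 0.011) as deposited and rose with median centring, and the irradiated KO-labelled array was its only low value. Zfp365 read 183.8, 115.5, 247 and 143.3 units, and Zfp335 296.4, 148.6, 249.6 and 127.5. In limma's irradiation term both fell as deposited but had positive differences under both rescalings.

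All 8 expressed promoter activators and related factors fell, of 10 listed and 9 on the array, beside the same 78.1%, with medians of -1.41 and -1.35. Zfp64, Zfp410, Zfp407 and Zfp131 fell under all 3 scalings. Zfp410, an activator of the NuRD gene Chd4, read 470.5, 88.77, 398.1 and 135.4 units and was 5.30-fold lower in WT and 2.94-fold in KO-labelled cells. Its target Chd4 read 463.8, 229.7, 487.9 and 281.2 units, 2.02-fold and 1.74-fold lower as deposited and with no passing difference under either rescaling. Zfp64 read 329.7, 79.37, 390.2 and 103.5 units, Zfp407 146.9, 41.32, 184.1 and 38.25, and Zfp131, which carries a BTB domain, 677.9, 234.1, 693 and 257.1. Each of these had its arrays split by irradiation and not by genotype. Zfp384 and Zfp91, the latter a ubiquitin ligase of NF-kB signalling, differed by less: Zfp384 was 2.43-fold (WT) and 2.13-fold (KO-labelled) lower, and Zfp91 2.18-fold and 2.11-fold. Zfp326, a subunit of a complex that couples transcription to splicing, was 2.08-fold and 2.02-fold lower, and Zfp219 1.52-fold and 2.40-fold. With median centring, none of these last 4 fell.

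The proteins that work on RNA, ribosomes, ubiquitin or the spindle had the smallest median differences of the 4 role lists, with a median of -0.69 (WT) and -1.003 (KO-labelled) and with 4 and 6 of 12 genes at least 2-fold lower. The WT median was above 0 under both rescalings, at 0.0773 and 0.38, and the KO-labelled one with centring, at 0.13. Of these 12, from 16 listed, 10 fell as deposited. These shares are near those of the other genes of this signal, of which 78.1% fell and 36.1% and 39.4% were at least 2-fold lower. Zfp207, or BuGZ, which stabilises the checkpoint protein Bub3 at kinetochores, read 2319, 791.1, 2321 and 741.5 units. Its unirradiated arrays were nearly equal in the genotypes and so were its irradiated ones, and it fell by 1.60 (SE 0.10, limma adjusted p = 4.14e-06). Zfp207 and the SUMO ligase Zfp451 were the members of this list that fell under all 3 scalings. Zfp638, an RNA-binding protein, read 171.1, 49.66, 175.8 and 62.48 units and was 3.45-fold and 2.81-fold lower.

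The ribosome factors differed little after UVB. Zfp622, which acts in late maturation of the large ribosomal subunit, read 1758, 1257, 2122 and 1460 units, 1.40-fold and 1.45-fold lower. Zfp598, the ubiquitin ligase that senses collided ribosomes, read 388, 303.5, 450.9 and 289.5 units, 1.28-fold and 1.56-fold lower. Both fell in limma as deposited, by 0.51 (SE 0.099, adjusted p = 0.00135) and by 0.50 (SE 0.14, adjusted p = 0.0115). Both rose with median centring, and Zfp598 also with quantile normalization. Zfp593, a factor of large subunit export, read 1175, 1265, 1250 and 1063 units, its arrays intermixed, with a difference of -0.06 that did not pass (SE 0.12, limma adjusted p = 0.64) and a rise under both rescalings. Zfp330, a nucleolar protein, read 813.8, 582.1, 1053 and 453.8 units, 1.40-fold lower in WT and 2.32-fold in KO-labelled cells. Zfp346, a double-stranded RNA-binding protein, and Zfp830, a splicing-associated protein, were intermediate, with Zfp346 at 2.36-fold (WT) and 1.77-fold (KO-labelled) lower and Zfp830 at 1.54-fold and 2.12-fold. Zfp277 was 1.73-fold and 1.89-fold lower, and Zfp106 1.69-fold and 1.66-fold. These 4 fell as deposited, and had positive differences with both rescalings, where Zfp106 rose with median centring.

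Zfp688 and Zfp764 were the genes with higher signal after UVB in both genotypes. Zfp688 read 112, 124, 138.8 and 167.2 units and Zfp764 85.06, 113.9, 112.9 and 116.4. Zfp764 is the 1 gene with an unirradiated mean under 100 units. It thus passed the minimum through its irradiated arrays, so its higher signal after UVB is not independent of the selection. Its probe set ends _x_at. The differences of 0.21 (SE 0.18, limma adjusted p = 0.32) and 0.23 (SE 0.20, limma adjusted p = 0.323) did not pass, and both genes rose under both rescalings. The genes lie near each other on the minus strand of chromosome 7, as the positions of the windows printed above show. Zfp385a, a p53-induced cofactor that directs p53 to growth arrest genes, read 135.2, 132, 169.4 and 79.2 units. Its WT arrays were equal within a few units and its KO-labelled ones were not, and the common difference of -0.57 did not pass (SE 0.25, limma adjusted p = 0.0718). Of the genes near this end of the range, Zfp185, which carries a LIM domain and binds actin, read 429.3, 326.6, 472 and 297.9 units, Zfp511 128.7, 103, 188 and 115.9, and Zfp414 176.7, 111.5, 260.2 and 153.5. These 3 fell as deposited and had positive differences under both rescalings.

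**Figure D3:**
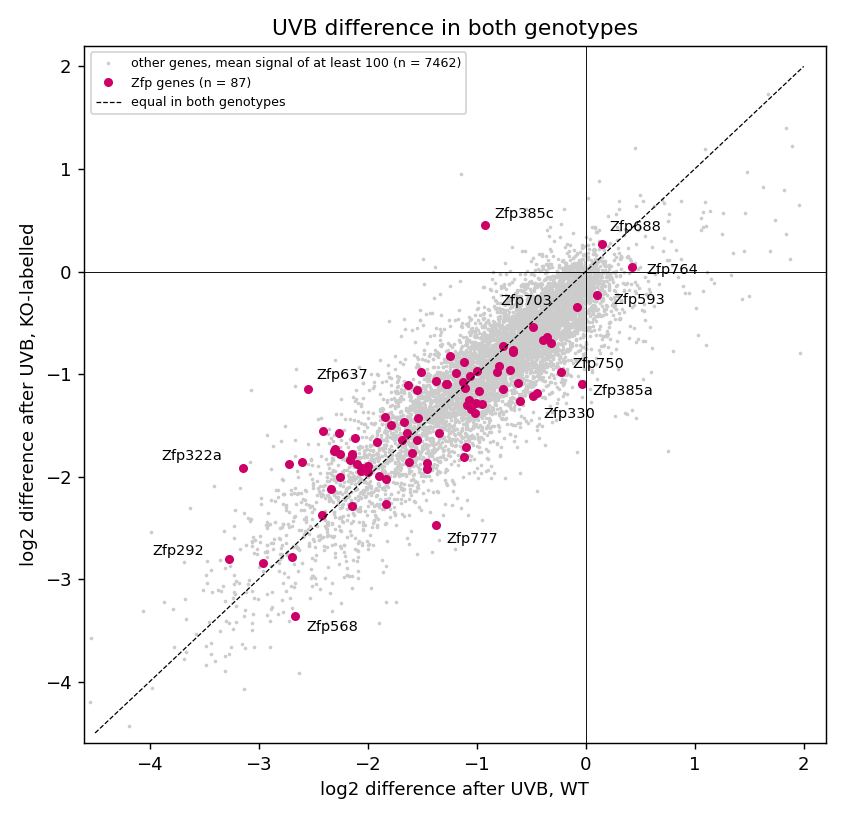
The log2 difference after UVB in WT on the horizontal axis and in KO-labelled cells on the vertical axis, 1 point per gene, with Zfp genes in colour, 7462 other genes in grey and a dashed line where both are equal. Most Zfp genes lie in the lower left along the line, and Zfp385c, Zfp637, Zfp322a, Zfp777 and Zfp385a lie farthest from it.

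The larger difference of the Zfp genes was present at each level of signal. Between 100 and 200 units, 48 Zfp genes had a median of -1.53 (WT) and -1.57 (KO-labelled), and 2108 other genes had -1.03 and -1.09. Between 200 and 400 units, 29 Zfp genes had -1.62 and -1.47, and 2065 others -0.88 and -0.96. At 400 units or more, 10 Zfp genes had -0.78 and -1.09, and 3289 others -0.50 and -0.60. The Zfp medians were thus lower in each class, with the fewest genes in the brightest. From the dimmest class to the brightest, 75%, 72.41% and 50% of Zfp genes were at least 2-fold lower in WT. The shares of the others were 51.19%, 44.12% and 21.5%. In KO-labelled cells the Zfp shares were 77.08%, 79.31% and 60%, against 53.84%, 47.7% and 24.93%. The 161 Zfp genes between the floor and 100 units, where a difference is limited by the floor, had medians of -1.28 and -1.23, and 130 of them, or 80.8%, fell in limma. The 3669 other genes of that range had medians of -0.63 and -0.79, and 50.8% fell. The remaining 80 Zfp genes on the array were below the floor on average and were not tested.

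Longer genes had larger differences, among Zfp genes and among others. All 87 genes were found in RefSeq, with a median span from start to end of 20.7 kb and a range of 2.286 to 381.8 kb, against a median of 23.45 kb for the other genes. The 16 Zfp genes shorter than 10 kb had a median of -0.75 (WT) and -0.98 (KO-labelled), and the 15 of 50 kb or more had -1.84 and -1.87. For other genes of these spans, 1859 and 1915 of them, the medians were -0.36 and -0.46, and -1.10 and -1.11. Between 10 and 20 kb, 25 Zfp genes had -1.35 and -1.42 and 1493 others -0.59 and -0.71, and between 20 and 50 kb, 31 Zfp genes had -1.38 and -1.43 and 2184 others -0.87 and -0.94. Across the 87 genes, which share the arrays, the log10 span and the difference after UVB had a Pearson r of -0.36 and a Spearman rho of -0.34 in WT and -0.36 and -0.33 in KO-labelled cells. Across 7451 other genes with a span these were -0.38 and -0.40, and -0.36 and -0.38.

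**Figure D4:**
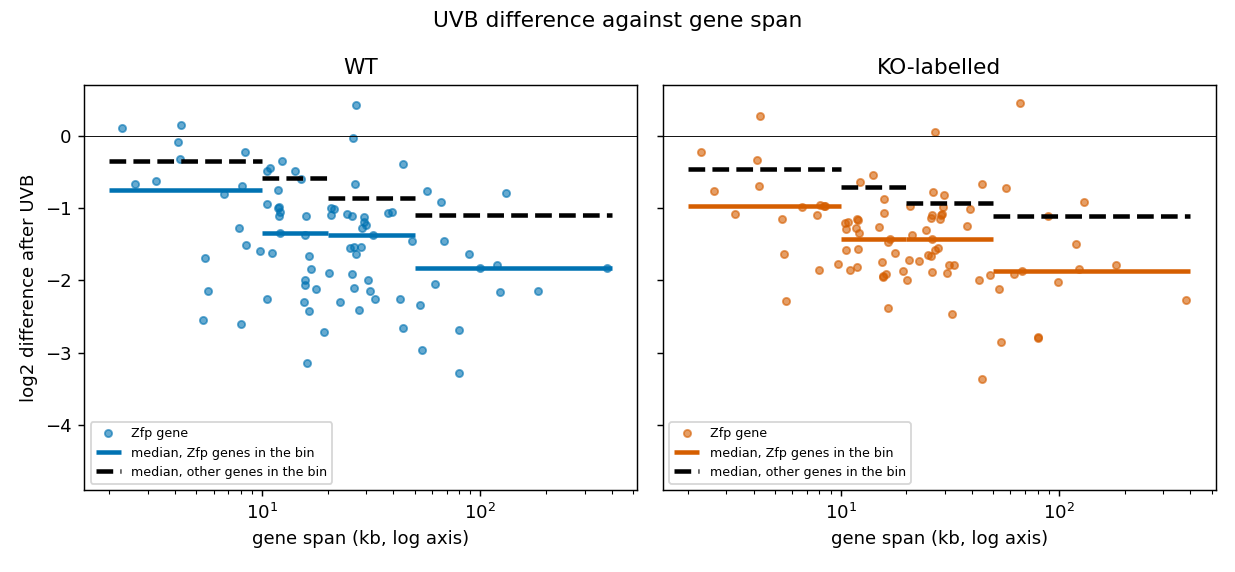
The log2 difference after UVB against gene span in kb on a log axis, 1 point per Zfp gene, in WT on the left and KO-labelled cells on the right. Solid bars are medians of the Zfp genes and dashed bars those of other genes with a mean signal of at least 100, in spans under 10, 10 to 20, 20 to 50 and at least 50 kb, and the solid bars lie below the dashed ones in each span.

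Other zinc finger families are given for comparison at the same minimum of 100 units, with no test of their difference from the Zfp genes, and beside 78.1% of all other genes of this signal falling in limma. The 17 Zbtb genes, whose proteins join a BTB domain to zinc fingers, had a median of -1.39 (WT) and -1.88 (KO-labelled), and all 17 fell in limma. The 12 Klf and Sp genes had -1.52 and -1.78, and 10 fell. The 6 Zkscan and Zscan genes had -1.74 and -1.05, and 5 fell. Of proteins with other zinc-binding folds, the 7 Zc3h genes, which bind RNA, had -0.95 and -0.97, and all 7 fell. The 14 Zdhhc genes, which are palmitoyltransferases, had -0.83 and -0.93, and 12 fell. The medians of the C2H2 families in WT thus lay near that of the Zfp genes, and those of Zc3h and Zdhhc nearer to that of the other genes. In KO-labelled cells the Zfp median was -1.42 and that of the other genes -0.82. There Zkscan and Zscan, like Zc3h and Zdhhc, lay nearer to the other genes, and Zbtb and Klf and Sp lay below the Zfp genes. With quantile normalization and median centring the medians stayed below 0 in both genotypes for Zbtb, at -0.34 and -0.77 and at -0.32 and -0.75, and for Klf and Sp, at -0.84 and -0.83 and at -0.45 and -0.65. The KO-labelled median turned above 0 for Zkscan and Zscan under both, at 0.0382 and 0.0823, both medians did for Zc3h with centring, at 0.12 and 0.16, and for Zdhhc the WT median did under both, at 0.0718 and 0.24, and the KO-labelled one with centring, at 0.20. The largest differences were those of Zbtb44, 15.8-fold lower in WT and 5.8-fold in KO-labelled cells, and Klf3, a repressor active in epidermis, at 10.8-fold and 12.3-fold, both of which fell under all 3 scalings.

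Further probe sets of the same genes gave a partly independent reading. Of the 87 genes 43 had others with a mean above the floor, 69 in all. Of these 69 probe sets 66 were lower in both genotypes, and the medians were -1.10 (WT) and -1.15 (KO-labelled). A negative difference was common everywhere: among the 11379 genes tested, 10233 had one in WT and 10664 when KO-labelled. The count of 66 alone therefore says little about Zfp genes. Over the 69, the further and chosen probe sets correlated with Pearson r 0.63 (WT) and 0.44 (KO-labelled). The Spearman rho was 0.71 and 0.36. Zfp148 had 5 further probe sets, all lower, and Zfp644 had 2 above the floor, at -3.82 and -2.82 and at -1.15 and -1.22. The 3 that were not lower in both belonged to Zfp655, Zfp64 and Zfp955a and were singled out after their values were seen. For Zfp655 the chosen probe set read 365.1, 87.54, 353 and 91.77 units and another read 147.8, 176.2, 140.4 and 143.9. The remaining one above the floor was lower, with 204.6, 52.51, 195.5 and 28.41 units. Which transcripts these probe sets detect was not examined. The further probe sets of Zfp64 and Zfp955a had means of 39 and 35.65 units, near the floor. Among the 87 chosen probe sets, 17 carry a suffix for probes shared by several transcripts or genes, 8 of them _a_at, 6 _x_at and 3 _s_at, and near-identical Zfp copies may share signal there. Their medians were -1.002 and -1.15, and those of the 70 without a suffix -1.52 and -1.57.

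Most Zfp genes were lower by a similar fold in both genotypes. Of the 87 genes 58 were at least 2-fold lower in both, against 28.9% of all genes tested and 31.5% of the other genes of this signal. In 17 neither difference reached 2-fold, against 6167 of the 11379 genes tested and 4131 of the 7462 other genes of this signal. Across the 87 genes the WT and KO-labelled differences had a Pearson r of 0.80 and a Spearman rho of 0.81, and across the 7462 other genes 0.89 and 0.87. The difference of the responses, KO-labelled minus WT, had a median of 0.03. It reached 2-fold in 5 genes and cannot be tested, because a model with this term leaves no residual degree of freedom. The 3 with the higher value in KO-labelled cells were Zfp637, at 1.40 on the log2 scale, Zfp385c, at 1.37, and Zfp322a, at 1.24 or more because of its floor value in WT. On the further Zfp322a probe set, with a mean of 105 units, the responses were nearly equal, at -2.45 (WT) and -2.41 (KO-labelled). The 2 with the lower value were Zfp777, at -1.09, and Zfp385a, at -1.06. Over all genes tested, 1.34% had a difference of 2-fold or more in the positive direction and 2.94% in the negative, and over other genes of this signal 0.536% and 1.43%.

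These 5 genes differed in which array set them apart. Zfp637 read 296.3, 50.54, 270.7 and 122 units, and the irradiated arrays differed. Zfp777 read 190, 73.18, 428.6 and 77.39 units, and the unirradiated arrays differed while the irradiated ones were close. Zfp385c, a relative of Zfp385a, read 110.1, 58.25, 99.45 and 135.9 units, lower after UVB in WT and higher in KO-labelled cells. Zfp385c and Zfp593 were the 2 genes with opposite signs in the genotypes, an arrangement found in 9.79% of all genes tested and 7.46% of other genes of this signal. On a further Zfp593 probe set both differences were negative, at -0.05 (WT) and -1.06 (KO-labelled). Each of these readings rests on 1 array. In the same order of size followed Zfp410 and Zfp267, at 0.85 and 0.84, and Zfp750, Zfp512b and Zfp330, at -0.75, -0.74 and -0.73. The gaps were smaller on further probe sets of Zfp410, at -1.74 (WT) and -1.46 (KO-labelled) after UVB, and of Zfp267, at -1.62 or lower and -1.12.

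Between the genotypes themselves few Zfp genes differed by 2-fold. Without irradiation the median was 0.15, KO-labelled minus WT, against 0.16 over all genes tested. Zfp777 was the only gene 2-fold higher, at 2.26-fold, and 0 were 2-fold lower, against 1.63% and 0.729% of all genes tested and 0.563% and 0.415% of the other genes of this signal. Next were Zfp991, at 0.94, with 145.8 units in WT and 280.5 in KO-labelled cells, and Zfp704, Zfp414 and Zfp518b, at 0.57, 0.56 and 0.55. The 2 further Zfp991 probe sets above the floor went the other way. They read 98.44 units in WT and 84.75 in KO-labelled cells, and 34.82 and 30.03. The further one of Zfp704 was higher in KO-labelled cells, at 77.84 and 95.48. In the other direction were Zfp280d, Zfp369, Zfp335, Zfp410 and Zfp715, at -0.44, -0.30, -0.25, -0.24 and -0.23. After UVB the median was 0.17 against 0.05, and 4 genes were 2-fold higher, against 1.41% of all genes tested and 1.15% of the others of this signal, with 0 lower, against 1.47% and 1.46%. The 4 were Zfp637 at 1.27, Zfp385c at 1.22, Zfp322a at 1.10 or more, and Zfp770 at 1.03. The further Zfp322a probe set read 27.72 units in irradiated WT and 38.21 in irradiated KO-labelled cells, less than 2-fold apart. Zfp385c passed the signal minimum through its irradiated KO-labelled array. The lowest were Zfp568 and Zfp750, both at -0.78, Zfp385a at -0.74, Zfp710 at -0.61 and Zfp219 at -0.53. With quantile normalization the medians were -0.02 without and 0.07 after irradiation, and with median centring -0.02 and 0.07, so the sign of the former depends on the scaling.

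In limma's genotype term 0 Zfp genes passed, where 0.967% of all genes tested passed as higher and 0.642% as lower, and 1.39% and 0.925% of the other genes of this signal. At an unadjusted p under 0.05 there were 15, or 17.2%, of which 14 were higher, a share near the 17.4% of all genes tested and under the 21.4% of the other genes of this signal. Summed markers of fibroblasts and melanocytes were higher in KO-labelled than in WT cells in both conditions, on 1 array per group. The 8 fibroblast markers, all above the floor, summed to 3531, 2770, 6780 and 4736 units. The 6 melanocyte markers, all above the floor, summed to 6088, 4761, 8469 and 5570. A linear sum follows its brightest genes, and single markers of these cells were not compared. The 10 keratinocyte markers summed to 49926, 40292, 50936 and 43205 units. Leukocyte markers, of which 2 of 6 were above the floor, summed to 111.6 units or less, and the 3 endothelial markers were all below it, with sums of 58.17 or less. The part of fibroblasts and melanocytes in the Zfp differences between genotypes was not tested.

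**Figure D5:**
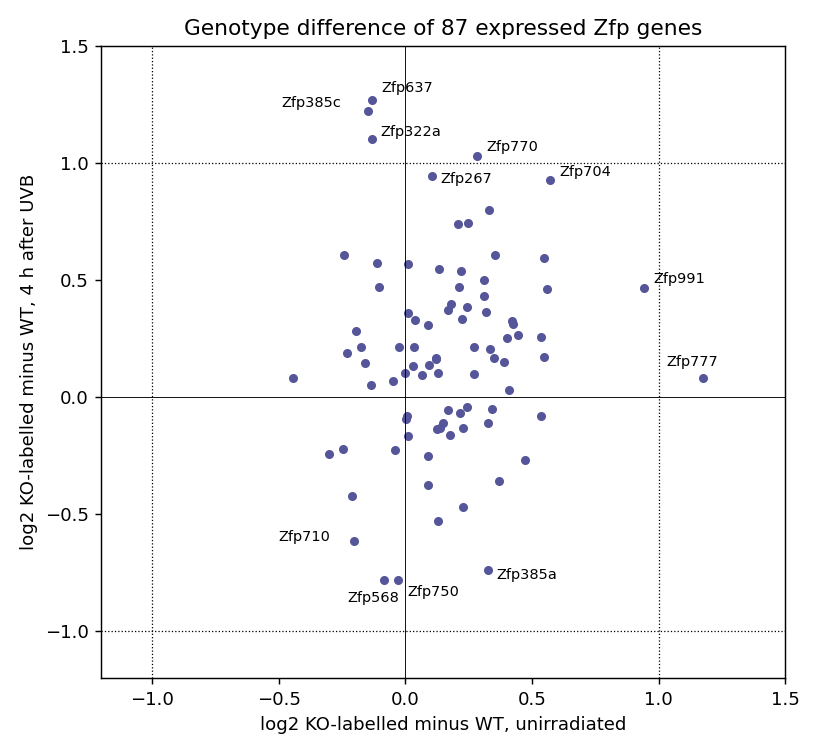
The log2 difference KO-labelled minus WT without irradiation on the horizontal axis and 4 h after UVB on the vertical axis, 1 point per Zfp gene, with dotted lines at 2-fold. Zfp777 lies past 2-fold without irradiation and Zfp637, Zfp385c, Zfp322a and Zfp770 after UVB, each from 1 array per group.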

How the data were processed

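Total RNA of 4 keratinocyte cultures was labelled by a 3′ in vitro transcription kit, per the labels' protocols, and the deposited values are linear MAS5 intensities of probe sets, per the submitters' processing notes. No source used here gives detection calls or the target of scaling. Groups come from the labels. Names come from the platform annotation, checked by gene ID against RefSeq, and probe sets with 1 symbol were used. Values under the floor of 24.9 units were raised to it and log2 taken. A fold with a value under the floor is a bound. limma 3.58.1 in R 4.3.3 fitted irradiation and genotype with an intensity trend (1 residual degree of freedom) to 11379 genes, with Benjamini-Hochberg adjustment at 0.05, and was tested on simulated data. Tables were made with Python 3.11.15 and pandas 2.3.3.

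The members, the lists of roles, co-repressors, families and markers, and the tests were chosen with earlier results of these data known. Named genes are the 6 with the highest mean signal, the 3 on each side of the minimum, the 10 lowest and 10 highest by mean UVB difference, the 5 largest genotype and response differences in each direction, the role lists, and the 3 largest of each other list, taken in WT and named in part for the families. Dnmt3b, Chd4, Trim28 and Setdb1 were named after their values were seen. A part of the rule that counted zinc fingers was not applied. Alternatives were quantile normalization, median centring, floors at the 25th and 75th percentile, other member minimums, other fold thresholds, other uses of probe sets (their mean, or none ending _x_at or _s_at), and fits with no trend or only the tested factor. The number of arrays limits the precision.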

Additional observations from a re-analysis of the deposited data

Results flagged for a closer look

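In 2 of the 87 Zfp genes the difference after UVB had opposite signs in the genotypes, against 9.79% of all genes tested and 7.46% of other genes with a mean signal of at least 100. For Zfp385c it read -0.92 (WT) and 0.45 (KO-labelled), a gap of 1.37 on the log2 scale. This gene, with a mean of 100.9 units, passed the minimum of 100 through its irradiated KO-labelled array, at 135.9 units. The same array sets the opposite sign and the gap, so the selection and this result are not independent. For Zfp593 the difference after UVB was 0.11 and -0.23, a gap of -0.34, on a probe set ending _x_at. On a further Zfp593 probe set, with a mean of 87.62 units, both differences were negative, at -0.05 and -1.06. The values of both genes rest on 1 array per group, and the difference between the genotypes was not tested. With quantile normalization both differences of a gene were above 0, at 0.13 and 1.53 for Zfp385c and 0.60 and 0.41 for Zfp593. With median centring they were also above 0, at 0.15 and 1.58 and at 1.18 and 0.90.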

How the results depend on the processing

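No paired analysis was possible because each group has 1 array, and for the same reason no replicate could be left out. The choice of scaling moved the results most. With quantile normalization 26 Zfp genes were at least 2-fold lower in WT and 10 in KO-labelled cells, 40 fell and 6 rose in limma, the UVB medians were -0.40 and -0.41, and the genotype medians were -0.0205 without irradiation, the opposite sign, and 0.0732 after it. With median centring these were 22, 8, 38, 11, -0.38, -0.29, -0.024 and 0.0677. The share of all genes at each fold threshold is not given here for the alternative settings, so the fold counts of this section have no background. At least 2-fold higher were 2 Zfp genes in WT and 3 in KO-labelled cells with quantile normalization, and 4 and 3 with median centring. In limma's irradiation term the sign turned under both, quantile first and centring second, for Zfp106 (0.14, 0.36), Zfp185 (0.34, 0.57), Zfp219 (0.12, 0.16), Zfp277 (0.0315, 0.24), Zfp335 (0.0411, 0.12), Zfp346 (0.0303, 0.0681), Zfp365 (0.32, 0.37), Zfp414 (0.34, 0.39), Zfp511 (0.57, 0.59), Zfp512 (2.39e-04, 0.00838), Zfp263 (0.18, 0.20), Zfp692 (0.22, 0.27), Zfp385a (0.51, 0.53), Zfp385c (0.83, 0.87), Zfp703 (0.53, 0.89), Zfp593 (0.50, 1.04), Zfp512b (0.27, 0.28), Zfp598 (0.39, 0.60), Zfp750 (0.12, 0.50), Zfp830 (0.12, 0.25) and Zfp931 (0.0184, 0.0255), and with centring alone for Zfp110 (0.10), Zfp771 (0.15), Zfp326 (0.0641), Zfp330 (0.25) and Zfp622 (0.59). A floor at the 75th percentile left 31 genes 2-fold lower in WT and 42 in KO-labelled cells, a WT median of -0.77 and an irradiated genotype median of 0. A member minimum of 50 gave 162 genes, of which 120 and 123 were 2-fold lower and 148 fell, with genotype medians of 0.0985 and 0.10. A minimum of 200 gave 39 genes, with 26, 29 and 37, and 0.0931 without irradiation. A 3-fold threshold gave 38 and 36. The counts stayed within 1.5 times under a floor at the 25th percentile, averaging a gene's probe sets, dropping those ending _x_at or _s_at, a 1.5-fold threshold, no intensity trend and a fit with only the tested factor. For the fold counts this was fixed in advance under the lower floor and the 1.5-fold threshold. Both settings can only raise these counts, and the total of 87 genes caps the rise. One array per group limits each pairwise value, and values near the floor understate a fall.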

Other observations

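Of the 3 pairs of expressed Zfp genes that adjoin each other in the RefSeq order of protein-coding genes, Zfp282 and Zfp212 on chromosome 6 differed after UVB by -2.15 and -1.35 in WT and by -1.79 and -1.57 in KO-labelled cells. Zfp777 and Zfp746, also on chromosome 6, differed by -1.38 and -1.09 in WT and by -2.47 and -1.30 in KO-labelled cells. Zfp35 and Zfp24 differed by -1.38 and -1.62 in WT and by -1.07 and -1.86 in KO-labelled cells. These values were not compared with those of pairs that lie apart.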
